A study of Homo sapiens with 8 samples.

Results

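Peaks of PTBP1 that lie in 3′ untranslated regions (3′ UTRs) are described below. They were taken from the deposited peak lists of both PTBP1 immunoprecipitation (IP) libraries as every peak whose transcript region is given as 3′ UTR, with repeated positions removed. This gave 18854 peaks in replicate 1 and 17716 in replicate 2, or 36570 of the 1139417 PTBP1 peaks and of the 1843422 peaks in all 4 lists. The study used eCLIP, in which a protein is crosslinked to the RNA it touches, pulled down, and the attached RNA fragments are sequenced beside an input sample. The cells were A172, an established human glioblastoma line, with no genetic change given in the labels, and all 8 samples had the same treatment before the pull-down. They were fed 4-thiouridine at 500 µM for 3 h, a base analogue that crosslinks under long-wave light, and then exposed 2 times to 365 nm light at 400 mJ/cm2. RNA was trimmed with RNase I, 2% of each lysate was set aside as input, and membrane between about 55 and 130 kDa was cut for PTBP1. For the comparison protein IGF2BP2 the cut was between about 65 and 140 kDa. Each protein has 2 IP and 2 input samples, which makes 4 groups. The values come from the 4 IP peak lists, and the inputs enter only through the ratios those hold. Nothing in the labels says that the libraries of a group came from separate cultures, so every p-value below measures the spread between these libraries.

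PTBP1, the polypyrimidine tract-binding protein, is an hnRNP protein with several RNA recognition motifs that favour runs of C and U. It is best known as a repressor of alternative exons, where it binds introns beside splice sites, and as a barrier to neuronal splicing programmes. In 3′ UTRs it is known to affect the choice of polyadenylation site, mRNA stability and access of Argonaute-bound microRNAs. IGF2BP2, also called IMP2, binds mature mRNAs, mostly in their 3′ UTRs, and is linked to their stability and transport.

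A few of the reproducible regions are printed first, because their strand bears on what a 3′ UTR label means in these lists. Peaks of replicates 1 and 2 that overlap on 1 strand were joined into what is called a reproducible region. Sequence could be read only where a region lay wholly inside a RefSeq promoter window of a neighbouring gene (GRCh38.p14), which held for 38 regions, none of them among the enriched ones described later. The 4 lines give the middle of each region, at most 30 bases, 5′ to 3′ on the strand of the region, and capitals mark the words TCTT and CTTT, then TTCT, and also TCTCT, searched on that strand as short pyrimidine words of the kind PTBP1 binds, each of which may overlap another.
GRWD1 (chr19:48455377-48455405, plus strand, the strand of the gene): atttgggagggtgagggtggggcctgggg
CACNB1 (chr17:39174403-39174430, minus strand, the strand of the gene): gggcccctctgcatctgagccccccatc
CCDC43 (chr17:44678923-44678952, minus strand, the strand of the gene): acaggacaagctgcagagggagagagacaa
CCDC43 (chr17:44678902-44678931, plus strand, opposite to the gene): ttgcgctcctgcttggctagtttgTCTCTc

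The CCDC43 pair shows the same stretch of genome called on both strands. Both regions had 62 IP reads over 10 input reads in replicate 1 and 42 over 12 in replicate 2, so the read numbers of the strands did not differ. The region on the opposite strand was 71.8% C and T, and that on the strand of the gene 24.5%. The GRWD1 region had 47 IP over 10 input reads and 38 over 7, and the CACNB1 region 11 over 4 and 14 over 5. A motif stood in 6 of the 38 sites of at most 30 bases (15.8%), against 24.7% of the 70232 sequences obtained from the middle 30 bases of 35116 promoter windows read on both strands. The sites with a motif in CCDC43, CCDC157, NOP9 and SLC2A4RG lay opposite to the gene, and that in RPRM on its strand. Over every nucleotide of PTBP1 3′ UTR peaks inside such windows, C and T made up 49.3% and 49.0% in the replicates, and over IGF2BP2 3′ UTR peaks 48.4% and 50.3%. These windows hold 64 and 62 PTBP1 peaks and are promoter sequence, so they are no sample of 3′ UTRs at large.

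The transcript region in the lists did not depend on strand. Where RefSeq gave the strand of the gene (for 80.7% and 81.0% of PTBP1 3′ UTR peaks), 2581 of 15215 peaks (17.0%) in replicate 1 and 2392 of 14350 (16.7%) in replicate 2 lay on the strand opposite to the gene whose 3′ UTR they were assigned to. A peak is called mirrored when a peak of the same list overlaps it on the other strand. Mirrored peaks made up 20.5% and 20.2% of 3′ UTR peaks, 9.64% and 9.62% of peaks in coding sequence, and 11.3% and 11.4% of intron peaks. Among peaks opposite to their gene 60.2% and 59.9% were mirrored, and among those on its strand 12.3% and 12.1%. Of the 216 and 178 mirrored pairs in 3′ UTRs that covered at least 80% of each other and had recovered reads, 24.1% and 43.8% had exactly the same IP and input reads. At 10 or more IP reads, the IP reads of 86.8% and 93.7% of such pairs lay within 10% of each other. The part of these pairs in the results was not tested as a cause. The count of genes that differ in peak density is given below with and without them, and other counts of peaks only with them.

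PTBP1 peaks in 3′ UTRs were a small fraction of each list. They made up 3.14% (95% Wilson interval 3.10 to 3.18%) of PTBP1 replicate 1 and 3.29% (3.24 to 3.34%) of replicate 2, against a mean of 6.70% ± 0.14 (SD, n = 2) in the IGF2BP2 lists. The groups did not overlap, and the difference of -3.49 percentage points had a two-sided exact permutation p of 0.333, the smallest that 2 libraries against 2 allow. Intervals of shares cover counting error only. The peaks fell in 5275 and 5092 genes, with a median of 2 peaks per gene, and 35.6% and 36.6% of these genes held 1 peak. Their median length was 38 and 36 nt, and they covered 0.816 and 0.737 Mb. On the strand of the gene, their median distance to its annotated 3′ end was 1501 and 1469 nt, and 2.06% and 2.20% lay within 100 nt of it.

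Most PTBP1 3′ UTR peaks stood little above their input. The score of a peak is the log2 of IP to input reads plus a constant of its library (-0.30 and -0.08 for PTBP1), and its median in 3′ UTRs was 0.57 and 0.61. In coding sequence the medians were 1.02 and 1.06, and in introns 0.95 and 1.03. Those of 5′ UTR peaks, 0.64 and 0.66, were close to the 3′ UTR values. A −log10 p of 0 was deposited for 30.3% and 29.0% of 3′ UTR peaks, against 13.7% and 13.3% in coding sequence and 27.1% and 23.6% in introns. Read numbers were recovered for 12845 of 18854 and 12246 of 17716 3′ UTR peaks. In coding sequence this held for 66964 of 79592 and 61640 of 72888 peaks. In introns it held for 318656 of 444639 and 296970 of 396346. Over these peaks, the median was 17 and 13 IP reads in 3′ UTRs, between coding sequence (29 and 22) and introns (10 and 8). Shares and differences by number of IP reads, here and below, cover such peaks only. Within the same gene, the median score of 3′ UTR peaks minus that of coding peaks was -0.28 and -0.26 on the log2 scale, over 1626 and 1536 genes. Against intron peaks of the same gene the differences were -0.28 and -0.28, over 1954 and 1859 genes. At 10 to 20 IP reads the difference from coding peaks was 0 in replicate 1 and -0.09 in replicate 2, and that from intron peaks was -0.17 and -0.22. This band leaves out peaks with a deposited log2 below 0. It also needs only 1 peak of a gene in each region type, where the values over all peaks needed 3. Against coding peaks the band covered 1157 and 1156 genes. The part of read numbers in the change was not tested.

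A peak is called enriched when its score and its −log10 p are both at least 3. Of the 3′ UTR peaks, 350 of 18854 (1.86%, 95% Wilson interval 1.67 to 2.06%) were enriched in replicate 1 and 321 of 17716 (1.81%, 1.63 to 2.02%) in replicate 2. Over all peaks of these lists the shares were 2.43% and 2.38%, so the 3′ UTR share lay below that of the whole list in both. With the log2 and −log10 p as deposited, before chromosomes were put on 1 scale, 1039 (5.51%) and 923 (5.21%) of the 3′ UTR peaks passed. In coding sequence 5.21% and 4.93% of peaks were enriched, and in introns 1.97% and 1.95%. In 5′ UTRs the mean share was 1.82% ± 0.14 (SD, n = 2), so the low share was not particular to 3′ UTRs. Among peaks of at least 10 IP reads the shares were 3.69% and 4.03% in 3′ UTRs, 7.29% and 7.39% in coding sequence, and 5.26% and 5.77% in introns. The 5′ UTR mean among such peaks was 3.33% ± 0.04 (SD, n = 2). Below 10 IP reads no peak was enriched, which the rule fixes, since so few reads over 1 input read cannot reach a −log10 p of 3. Above 50 IP reads replicate 1 had 5.33% in 3′ UTRs and 8.06% in coding sequence, and replicate 2 had 7.70% and 7.78%. On the strand of the gene 2.07% and 1.95% of 3′ UTR peaks were enriched, and on the opposite strand 1.32% and 1.46%. IGF2BP2 3′ UTR peaks were enriched in 20.9% ± 0.03 (SD, n = 2), against 9.19% and 9.35% of all IGF2BP2 peaks. The bar differs between the proteins, since the constants of the IGF2BP2 libraries are 1.74 and 1.90 and fewer IP reads per input read then reach a score of 3.

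**Figure D1:**
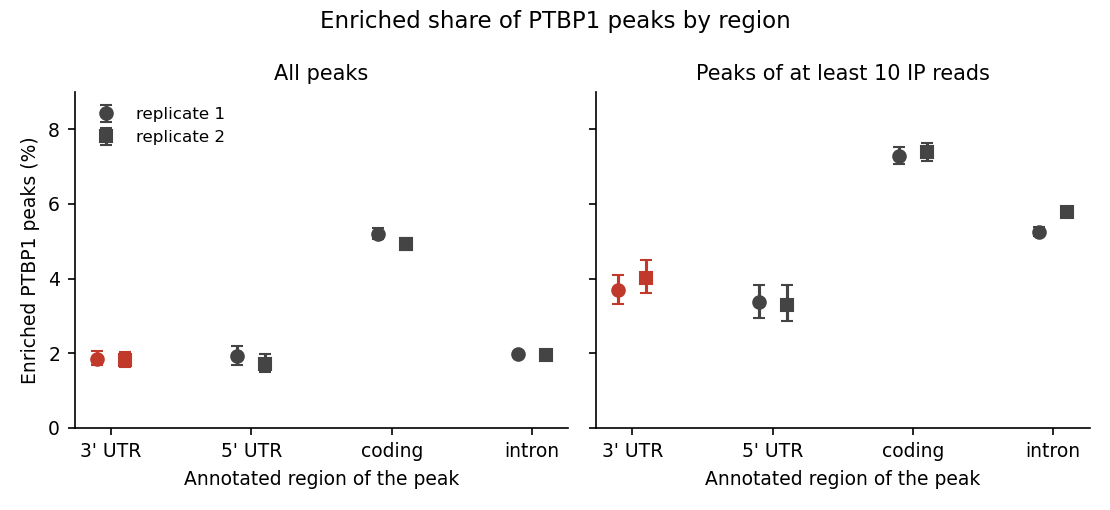
Percent of PTBP1 peaks that were enriched (vertical axis) by annotated region (horizontal axis), for all peaks and for those with 10 or more IP reads. The second set holds only peaks with recovered reads. Circles are replicate 1, squares replicate 2, and bars are 95% Wilson intervals, hidden where shorter than the symbol. The 3′ UTR points, in red, lie at 1.86% and 1.81% over all peaks, below coding sequence at 5.21% and 4.93%. Those of 5′ UTRs have a mean of 1.82%.

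Whether a 3′ UTR peak was found again depended on its reads. With 1 shared nt on 1 strand as the least overlap, the other PTBP1 list held a peak over 60.6% of 3′ UTR peaks in replicate 1 and 64.4% in replicate 2. The shares were 70.5% and 74.8% in coding sequence and 52.8% and 59.0% in introns. Among 3′ UTR peaks with 3 IP reads they were 11.0% and 16.4%. At 10 to 19 reads they were 57.9% and 67.2%, and above 50 reads 91.7% and 94.6%. Above 50 reads the 3 region types lay within 91.2% to 92.1% in replicate 1 and 94.6% to 95.1% in replicate 2. Of the enriched 3′ UTR peaks, 84.6% and 89.4% were found again.

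IGF2BP2 peaks overlapped close to 49 in 100 of these peaks. The share overlapped by a peak of either IGF2BP2 list on the same strand was 48.8% (95% Wilson interval 48.1 to 49.5%) and 48.9% (48.2 to 49.7%) in 3′ UTRs, 31.9% and 32.7% in coding sequence, and 24.5% and 25.4% in introns. Peaks of both IGF2BP2 lists overlapped 31.4% and 31.6% of PTBP1 3′ UTR peaks. The 3′ UTR share was the highest of the 3 region types in each band of IP reads, whereas coding peaks, above intron peaks over all reads, lay below them in the bands given next. At 10 to 19 reads 38.0% and 43.9% of 3′ UTR peaks were overlapped, against 16.1% and 19.8% of coding peaks and 23.7% and 28.9% of intron peaks. Above 50 reads the shares were 72.3% and 73.8%, 51.4% and 56.4%, and 63.8% and 68.7%. The IGF2BP2 lists themselves held a larger share of 3′ UTR peaks, as given above, and the part of that in the overlap was not tested. Among enriched PTBP1 3′ UTR peaks, 47.4% and 46.7% were overlapped by a peak of either IGF2BP2 list.

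**Figure D2:**
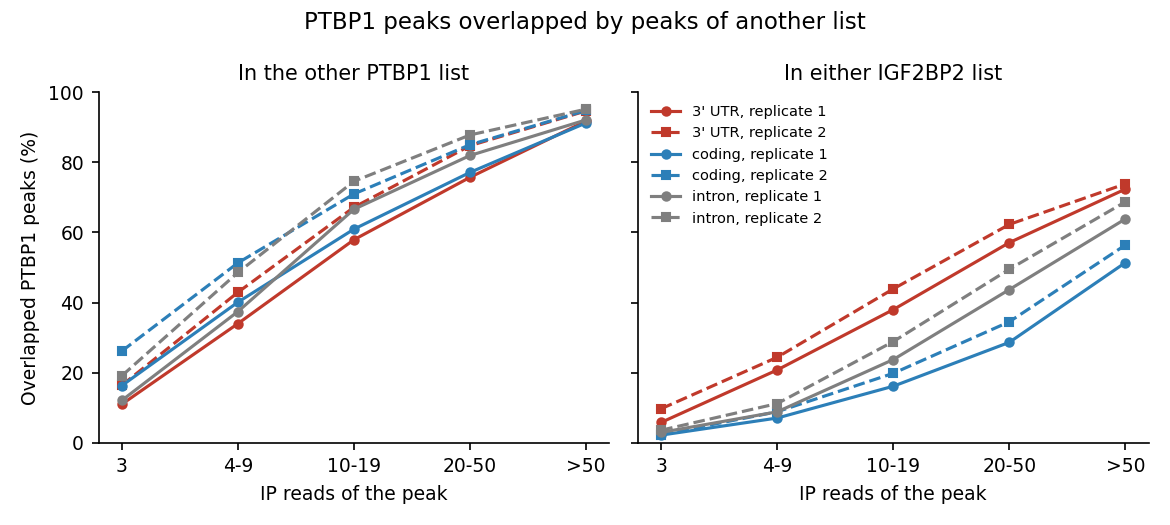
Percent of PTBP1 peaks overlapped by a peak of the other PTBP1 list (left) and of either IGF2BP2 list (right), by IP reads of the peak (horizontal axis) and region (colour). Only peaks with recovered reads are included. Solid lines are replicate 1 and dashed lines replicate 2. On the right, 3′ UTR peaks lie above coding and intron peaks in each read band of both replicates, and on the left they meet them above 50 reads.

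Joining both replicates gave 10666 reproducible PTBP1 regions in 3807 genes, with a median length of 57 nt. In 57.1% of them the score was at least 0 in both replicates. Across the 10665 regions on assembled chromosomes, the scores of the replicates had a Pearson r of 0.785 and a Spearman rho of 0.762. Regions of 1 gene are not independent of each other, so this is a description. Enriched peaks of both replicates stood in 154 regions (1.44%) of 108 genes, with a median length of 85 nt. Of these, 118 lay on the strand of the gene, 13 on the opposite strand and 23 in genes of unknown strand, and 32 were mirrored. The input was 1 read in both replicates for 18 regions, whose scores rest on that read. Only 94 of the 154 had no recovered input of 1 read in either replicate. In all others at least 1 of the scores rests on 1 input read. Both IGF2BP2 lists overlapped 51 of the 154 (33.1%), and neither list overlapped 72 (46.8%). For all reproducible PTBP1 regions these shares were 42.4% and 38.6%. Enriched peaks of both IGF2BP2 lists overlapped 22. Another annotated gene overlapped 22 regions, 8 of them on the strand of the region, and that held for 5 of the 13 regions opposite to their gene. Over the 116 regions on the strand of a gene with a RefSeq end, the median distance to that end was 1792 nt, and 20 regions of 17 genes lay more than 5000 nt before it.

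Ranked by the lower score of the 2 replicates, the highest enriched regions were in HMGB1, a chromatin-bending high mobility group protein that also acts as an alarmin. Its 4 peaks in each replicate were all enriched, with median scores of 5.99 and 6.38. They form 2 regions that touch (hg38, chr13:30461360-30461415 and chr13:30461416-30461500, minus strand), with scores of 6.12 and 6.05 in replicate 1 and 6.47 and 6.65 in replicate 2. All had the largest −log10 p the lists hold, 400, at which read numbers could not be recovered. IGF2BP2 peaks of both replicates overlapped both regions, and none of them was enriched. HMGB1 has many near-identical processed copies in the genome, and how the study treated reads with several matches is not given in the sources used here.

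SNX27, a sorting nexin that returns membrane proteins from endosomes to the cell surface, held 6 enriched regions on its own strand within 1688 nt of its 3′ UTR. Neither mirrored peaks nor peaks opposite to the gene were seen there. The highest (chr1:151696874-151696967) had 103 IP reads over 1 input read in replicate 1 and 105 over 3 in replicate 2, with scores of 6.38 and 5.05. A second region, chr1:151696517-151696562, had 49 over 1 and 59 over 2. No IGF2BP2 peak overlapped either. Nearer the end of the gene the scores were lower, 3.07 at most. The peak 1518 nt before it had 106 IP over 28 input reads and a score of 1.62 in replicate 1, and its match in replicate 2 had 79 over 38 and 0.98. The last, 314 and 330 nt before the end, scored 1.15 and 1.12. SNX27 had 12 and 11 PTBP1 peaks and 5 and 9 IGF2BP2 peaks in its 3′ UTR, and no enriched IGF2BP2 region.

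RAD18, a ubiquitin ligase of DNA damage tolerance, held 3 enriched regions over 799 nt. Its highest (chr3:8877778-8877874, minus strand) lay 703 nt before the gene end and had 135 IP over 4 input reads in replicate 1 and 88 over 1 in replicate 2, with scores of 4.77 and 6.38 and no IGF2BP2 peak over it. The other two scored 4.16 and 4.68, and 3.02 and 5.13. NXF1, the export receptor for bulk mRNA, held 4 enriched regions over 1649 nt. The highest (chr11:62799194-62799292, minus strand) had 224 IP over 7 input reads and 177 over 2, with scores of 4.70 and 6.39, and lay 7064 nt before the annotated end of the gene. The 3′ UTR label of NXF1 thus belongs to a place well inside the gene. Peaks of both IGF2BP2 lists overlapped that region.

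SCD, the stearoyl-CoA desaturase of fatty acid synthesis, held 4 enriched regions, with 9 and 8 PTBP1 peaks. The highest (chr10:100361159-100361236, plus strand) had 69 IP over 1 input read and 41 over 2, with scores of 5.81 and 4.28. SCD also had 13 and 15 IGF2BP2 peaks and 10 enriched IGF2BP2 regions, and both IGF2BP2 lists overlapped 3 of its 4 enriched PTBP1 regions. In 38 genes enriched regions of both proteins were found, of the 108 with one for PTBP1 and the 1347 with one for IGF2BP2.

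**Figure D3:**
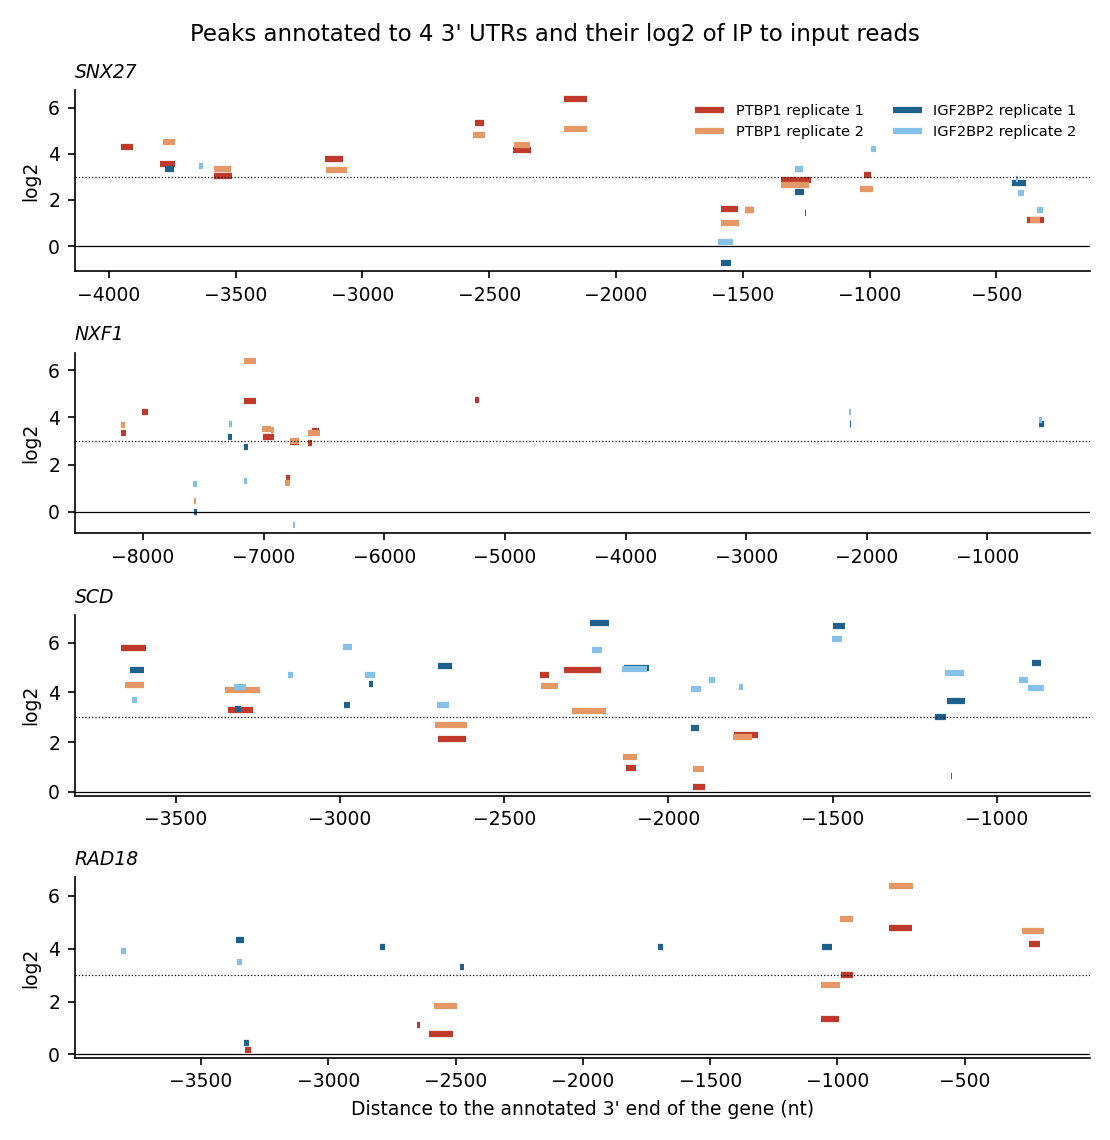
Peaks annotated to the 3′ UTRs of SNX27, NXF1, SCD and RAD18, drawn at their score (vertical axis, log2 of IP to input reads plus the library constant) and their distance to the annotated 3′ end of the gene in nt (horizontal axis). Red and orange bars are PTBP1 replicates 1 and 2, dark and light blue bars IGF2BP2 replicates 1 and 2, and the dotted line is a score of 3. All PTBP1 peaks of SNX27 from 2113 nt before the end and farther lie above the line, and those of NXF1 stand more than 5000 nt before it.

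Other regions among the 10 with the highest lower score of the replicates were on the strand of their gene, or in TEAD1, whose strand was not known. LRRC41, a leucine-rich repeat protein that binds cullin ligases, had a region at chr1:46278693-46278856 with 200 IP over 3 input reads and 152 over 2 (scores 5.76 and 6.17). PSMD11, a lid subunit of the proteasome, had one at chr17:32481569-32481703 with 158 over 4 and 122 over 3 (5.001 and 5.27). TEAD1, a transcription factor of the Hippo pathway, had one at chr11:12939953-12940056 with 55 over 1 and 33 over 1 (5.48 and 4.97). PLK2, a polo-like kinase, had one at chr5:58454433-58454518 with 123 over 3 and 82 over 3 (5.05 and 4.70), 451 nt before the gene end. The TEAD1 and PLK2 regions were also overlapped by enriched peaks of both IGF2BP2 lists.

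Genes with many enriched regions were not all of the same kind. MYADM, a membrane protein of the MARVEL family, had 6 enriched regions, of which 4 lay on its strand and 2 opposite to it, and 5 were mirrored. Its region at chr19:53876104-53876146, the one that was not mirrored, had 437 IP over 37 input reads and 394 over 35. BEST1, an anion channel, had 4 enriched regions within 400 nt, all mirrored, and RefSeq places them also within FTH1, the ferritin heavy chain gene. ATP2B1, a plasma membrane calcium pump taken by alphabet among the genes tied at 2 enriched regions, had 1 on each strand, both mirrored, with the same 17 IP reads over 1 input read in replicate 2. DUSP7, a phosphatase of the ERK kinases, had 3 enriched regions within 256 nt on its own strand, none mirrored. The remaining genes of the 10 with the most were GPRC5A, an orphan receptor, and PRRC2B, an mRNA-binding protein, each with 3.

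**Figure D4:**
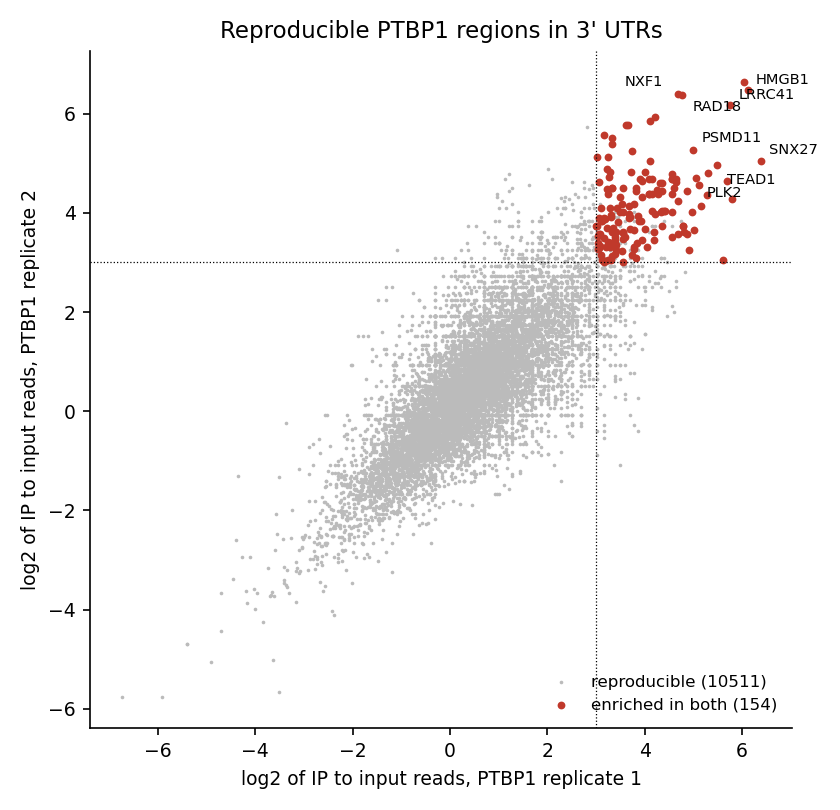
Score (log2 of IP to input reads plus the library constant) of each reproducible PTBP1 3′ UTR region in replicate 1 (horizontal axis) and replicate 2 (vertical axis). Grey points are regions not enriched in both replicates and red points the 154 that were. Dotted lines mark a score of 3, and HMGB1, SNX27, LRRC41, NXF1 and RAD18 stand at the upper right.

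The 5 genes with the most reproducible regions, chosen after their values were seen, held none that was enriched in both replicates. The gene with the most PTBP1 3′ UTR peaks, CCDC85C, had 73 and 60, of which 38 and 31 lay opposite to the gene and 65 and 48 were mirrored. It had 43 reproducible regions, and the median scores of its peaks, 0.11 and 0.16, were below the 0.57 and 0.61 of all PTBP1 3′ UTR peaks. DBNL, an actin-binding adaptor, had 35 reproducible regions, KIAA1614 32, PDXK, the pyridoxal kinase, 31 and FMNL3, a formin, 27. Median scores were above those of all in DBNL (0.87 and 1.25), KIAA1614 (1.28 and 1.38) and FMNL3 (0.93 and 1.05), and below them in PDXK (0.34 and 0.42).

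The distribution of 3′ UTR peaks over genes was compared between the proteins. For each gene with at least 8 such peaks over the 4 lists, its share of the 3′ UTR peaks of a list was tested with limma on a log2 scale, with Benjamini-Hochberg adjustment over 3163 genes. At an adjusted p under 0.05, 342 genes (10.8%) differed, 143 (4.52%) toward PTBP1 and 199 (6.29%) toward IGF2BP2. Of the 143, 46 had no IGF2BP2 3′ UTR peak, and of the 199, 121 had no PTBP1 3′ UTR peak. A fitted difference against a count of 0 depends on the pseudocount, so the peak numbers are given for such genes. Without either PTBP1 library no gene passed (829 genes without replicate 1 and 831 without replicate 2 had an unadjusted p under 0.05 in limma), whereas without an IGF2BP2 library 960 and 924 did. Scaled to all peaks of a list in place of its 3′ UTR peaks, the median difference moved from -0.08 to -1.14, and 76 genes were called toward PTBP1 and 1592 toward IGF2BP2.

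The 10 genes with the largest difference toward PTBP1 had no IGF2BP2 3′ UTR peak in either list and no enriched PTBP1 region. MBP, the myelin basic protein gene, had 12 and 13 PTBP1 peaks in its 3′ UTR, 8 of them mirrored in each replicate. L3MBTL1, a chromatin reader, had 12 and 12, of which 10 and 8 were mirrored. MYRF, a membrane-bound transcription factor of myelination, had 12 and 7 (10 and 6 mirrored), and KIAA1549 7 and 10 (6 and 10 mirrored). No mirrored peak was found in HEBP2, a haem-binding protein, with 9 and 8 peaks, or in RPAP2, a phosphatase of RNA polymerase II, with 11 and 6. TMEM8B had 10 and 9 (2 and 2 mirrored), and LHX4, NPY4R and TUBGCP4 each had 6 and 8. Mirrored peaks numbered 4 and 6 in LHX4 and in TUBGCP4, and 4 and 8 in NPY4R. NPY4R has a near-identical copy, so its peaks are uncertain. Genes at 0 for IGF2BP2 passed the filter on low numbers through their PTBP1 peaks alone, which fixes the direction, so no p is given for them. Their IP reads were low in part: the median was 4 in both replicates of HEBP2 and 8 and 4 in MBP.

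Many peaks of these 143 genes were mirrored. Of their PTBP1 3′ UTR peaks 42.1% and 44.7% were mirrored, against 20.5% and 20.2% of all PTBP1 3′ UTR peaks, and 27.8% and 27.2% lay opposite to the gene, against 17.0% and 16.7%. The part of mirrored peaks in these calls was not tested as a cause. With mirrored peaks left out, 231 of 2705 genes passed, 80 toward PTBP1 and 151 toward IGF2BP2. With peaks on the strand of the gene only, 285 of 2330 passed, 121 and 164. Enriched peaks made up 2.11% and 2.15% of the PTBP1 peaks in the 143 genes, close to the 1.86% and 1.81% of all.

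**Figure D5:**
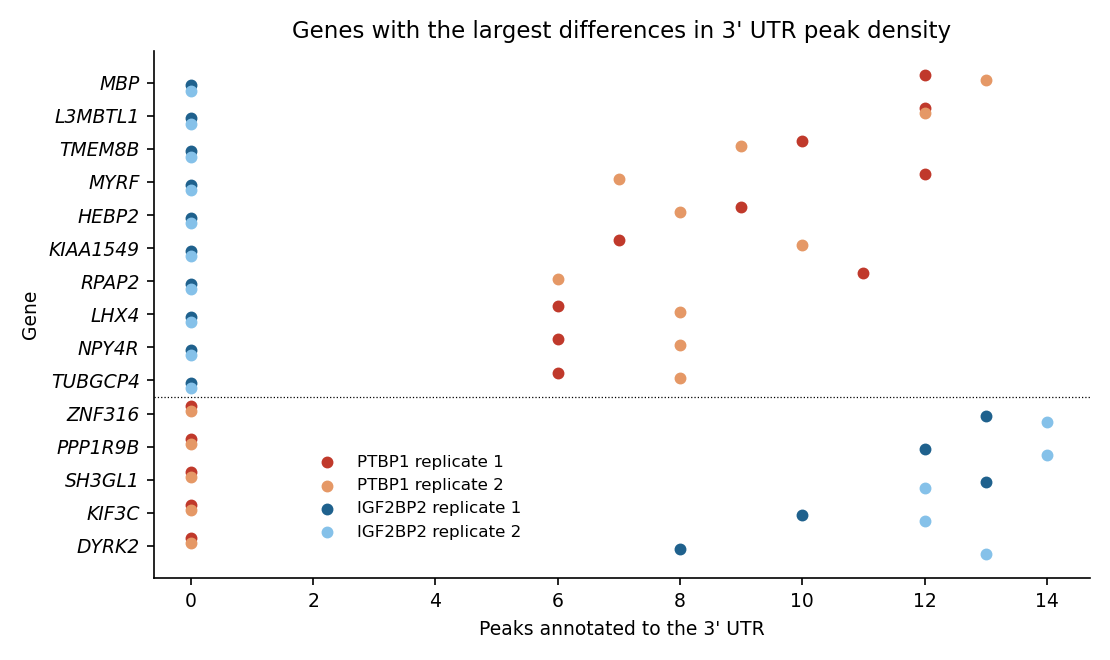
Peaks annotated to the 3′ UTR (horizontal axis) in each of the 4 libraries for the 10 genes with the largest difference toward PTBP1, above the dotted line, and the 5 with the largest toward IGF2BP2, below it. Each point is 1 library. Every gene has 0 peaks in both libraries of the other protein and between 6 and 14 in its own.

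The 5 genes furthest toward IGF2BP2 had no PTBP1 3′ UTR peak. ZNF316 had 13 and 14 IGF2BP2 peaks, PPP1R9B, a scaffold of protein phosphatase 1, 12 and 14, SH3GL1, an endocytic adaptor, 13 and 12, KIF3C, a kinesin, 10 and 12, and DYRK2, a kinase, 8 and 13. PTBP1 was still found elsewhere in these genes. Outside 3′ UTRs SH3GL1 had 93 and 76 PTBP1 peaks and KIF3C 62 and 49.

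Peaks outside 3′ UTRs were tested in the same way, and 3369 of 15666 genes (21.5%) passed. Of the 137 genes called toward PTBP1 in their 3′ UTR that were also tested outside it, 28 were called toward PTBP1 outside, 12 toward IGF2BP2 and 97 neither way. The median difference on the log2 scale was 2.10 in the 3′ UTR over all 143 genes called toward PTBP1, and 0.36 outside over the 137. Of the 193 called toward IGF2BP2 and tested outside, 56 were called toward IGF2BP2, 16 toward PTBP1 and 121 neither way. On that side the medians were -2.80 in the 3′ UTR over all 199 genes and -0.43 outside over the 193. Over all 3093 genes tested in both, 345 were called toward PTBP1 outside 3′ UTRs, 621 toward IGF2BP2 and 2127 neither way, and the outside median was -0.18. The called genes were chosen by their 3′ UTR difference, which by itself favours a larger value inside. The difference between inside and outside was not tested.

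Transcripts of the PTBP genes themselves held peaks of both proteins in part. PTBP1 mRNA had 7 and 4 PTBP1 peaks and 10 and 12 IGF2BP2 peaks in its 3′ UTR, a difference of -0.61 ± 0.30 (SE) with an adjusted p of 0.228 in limma. The median score of its PTBP1 peaks was -0.62 and -0.70, and 5 of the 7 and 3 of the 4 had a −log10 p of 0. PTBP3, a paralogue, had 4 and 1 PTBP1 peaks and 8 and 6 IGF2BP2 peaks. PTBP2, the neuronal paralogue whose splicing PTBP1 represses, had no 3′ UTR peak of either protein. Of the 6 PTBP and hnRNP genes that could be tested, none passed, and their median difference was -0.97, against -0.08 over all genes tested. PTBP1 3′ UTR peaks of this list had median scores of -0.41 and -0.77, below the 0.57 and 0.61 of all.

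Genes that act on 3′ UTRs are read against the 10.8% of all genes tested that differed. Of 8 tested genes of 3′ end processing and microRNA silencing, 1 differed, toward IGF2BP2. It was TNRC6B, a GW182 partner of Argonaute, with 4 and 5 PTBP1 against 15 and 16 IGF2BP2 peaks (difference -1.32 ± 0.22 SE, adjusted p 0.0347 in limma). AGO2, the slicing Argonaute, had 14 and 15 PTBP1 and 16 and 26 IGF2BP2 peaks and did not pass (-0.11), and with peaks of at least 10 IP reads only it passed toward PTBP1 (1.22). Of 9 tested regulators of mRNA decay, 1 differed, toward PTBP1. This was SMG1, the kinase of nonsense-mediated decay, with 7 and 6 against 2 and 1 peaks, where 6 of the PTBP1 peaks in each replicate were mirrored. SMG1 has near-identical pseudogene copies, so its peaks are uncertain. None of the 6 tested genes of the REST complex and its phosphatases passed. CTDSP1, a phosphatase whose 3′ UTR is a known site of PTBP1 and miR-124 action, had 10 and 11 PTBP1 peaks, all on its strand, and 9 and 12 IGF2BP2 peaks. Its 8 reproducible PTBP1 regions held none that was enriched.

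Short-lived growth and inflammation mRNAs had many PTBP1 3′ UTR peaks, 90 and 76 in all, with median scores of -0.13 and -0.09. Input exceeded IP on this scale at 55.6% and 53.9% of them, against 30.9% and 31.4% of all PTBP1 3′ UTR peaks. Of 12 genes tested 1 differed, toward IGF2BP2: CCND1, cyclin D1, had 9 and 9 PTBP1 peaks against 24 and 21 (-0.90 ± 0.15 SE, adjusted p 0.0334 in limma). All 9 PTBP1 peaks of CCND1 in each replicate had a −log10 p of 0, and their highest scores were -0.33 and -0.50. Enriched regions were found in 2 genes of this list, FOSL2 and JUN, partners in the AP-1 transcription factor. The region in JUN, named after its values were seen, had 224 IP over 12 input reads and 136 over 9, with scores of 3.92 and 3.84. FOSL2 had scores up to 5.28 and 4.35. It had 19 and 20 PTBP1 peaks, all on its strand, and 2 regions enriched in both replicates. Its density did not differ (0.33, adjusted p 0.172), and it passed toward IGF2BP2 when scaled to all peaks (-0.73) or with peaks of at least 10 IP reads (-0.72).

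High mobility group and acidic nuclear proteins held the highest median score of the lists with more than 10 peaks in each replicate, 1.24 and 1.87 over 19 and 20 peaks. This list includes HMGB1, described above. Of 5 genes tested, ANP32E, a histone H2A.Z chaperone, was called toward PTBP1 with 4 and 5 peaks against 1 and 1. None of its PTBP1 peaks, and each of its IGF2BP2 peaks, had a −log10 p of 0. NUCKS1 had 0 and 0 PTBP1 against 7 and 8 IGF2BP2 peaks, and as in the other genes with no peak of 1 protein, the filter fixes the direction of its call. HMGA1 had 6 and 5 PTBP1 peaks with median scores of -1.65 and -1.49 and did not pass.

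Extracellular matrix genes had few PTBP1 3′ UTR peaks, 9 in each replicate over 22 genes present in the lists, and 3 of 5 tested genes were called toward IGF2BP2, against 6.29% of all genes tested. THBS1, thrombospondin, had 1 and 1 PTBP1 peaks against 6 and 6 (-1.75 ± 0.31 SE, adjusted p 0.0408 in limma), and LAMC1, a laminin chain, 0 and 0 against 5 and 5, where the filter fixes the direction. Among cytoskeleton and adhesion genes 1 of 11 passed, TPM4, a tropomyosin, likewise with 0 and 0 against 11 and 9. Among chaperones 1 of 4 passed, DNAJB1, with 2 and 2 against 8 and 8. None of 8 hypoxia and glycolysis genes and neither of 2 mitotic genes passed. PRC1, a spindle midzone protein too sparse to test, had 3 and 2 PTBP1 peaks, 1 enriched region and no IGF2BP2 peak.

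Marker genes were read as a check of the label, with the limit that peaks show bound RNA and not its level. Of 16 glial and mesenchymal glioma markers 15 had a peak somewhere in the lists, and 4 had a PTBP1 3′ UTR peak in both replicates. Of 4 tested, 2 were called toward IGF2BP2, among them EGFR, with 2 and 2 PTBP1 against 13 and 10 IGF2BP2 peaks. No blood cell or epithelial marker had a PTBP1 3′ UTR peak in both replicates, and 2 of 10 neuronal markers did. Of the 7448 genes with a 3′ UTR peak in any list, 4320 did. That count starts from genes with such a peak, whereas the marker counts cover all listed members. These shares therefore cannot be compared directly. CLDN4, an epithelial marker, had 0 and 4 PTBP1 and 6 and 5 IGF2BP2 peaks in its 3′ UTR. Reproducible IGF2BP2 regions stood in 8 of 16 glial, 1 of 10 neuronal, 2 of 8 epithelial and 0 of 12 blood cell markers. RBFOX3 (NeuN), a neuronal marker, had 5 and 5 PTBP1 and no IGF2BP2 peaks. Its PTBP1 peaks had a median of 6 and 4 IP reads, and none was enriched.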

How the data were processed

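Peak lists of 4 eCLIP libraries were read as deposited, 1 list per library, not pooled. The submitters' processing notes name HISAT2 and hg38, with no version, and the sources used here do not give the peak caller, filters and annotation. Per the file headers, each line holds a position, strand, gene, transcript region and an overlap length in nt. The authors deposited a −log10 p per peak, which stops at 400. The column headed as a count holds log2 values in the deposited lists: the log2 ratio of IP to input reads plus 1 constant per chromosome, found on 24 of 24 chromosomes in each list. The values, not a stated method, show the divisor to be the input.

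Whole reads were recovered where log2 and −log10 p allowed (98.1% and 97.6% of eligible PTBP1 3′ UTR peaks, tolerance 1% on −log10 p), giving 12845 and 12246 peaks with reads. Peaks deposited with a −log10 p of 0 or 400 were not eligible. Medians of IP reads and shares by IP reads leave out every peak without recovered reads. Library depth is not known. Scores were moved to the median constant of each library, and −log10 p was recomputed. Peaks without recovered reads kept the deposited −log10 p. Density was log2 of (3′ UTR peaks + 0.5) over (3′ UTR peaks of the list + 1) times 10000, tested with limma 3.58.1 (trend) in R 4.3.3. Other steps used Python 3.11.15. Recovery, overlap and the limma step were checked on simulated data. No count test was run, since the lists hold no counts per gene. Gene strands came from RefSeq promoter windows, known for 80.9% of 7448 genes.

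Named genes are the 10 regions with the highest lower score, the 10 genes with the most enriched regions (ties by alphabet), the 10 and 5 genes with the largest density differences toward PTBP1 and IGF2BP2, members of 11 functional and 4 marker lists, and the PTBP genes. CCDC85C and the 4 genes after it by number of regions, and the printed sequences, were chosen after their values were seen. Members and lists were chosen with earlier results of these data known. Alternatives were other pseudocounts, filters, scalings, strand and overlap rules, the replicate block and leaving out each library. Pyrimidine content of all peaks was not analysed here, and a few named items are not reported here.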

Additional observations from a re-analysis of the deposited data

How the results depend on the processing

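The count of genes that differed in 3′ UTR density was 342. It was 633 with a pseudocount of 2, 1257 with no filter, 1668 scaled to all peaks, 1148 with nucleotides covered (pseudocount 20) and 643 with peaks of at least 10 IP reads, and between 0 and 960 without 1 library. At least 20 peaks per gene gave 269, and the share toward PTBP1 went from 41.8% to 62.2% with no filter, 52.4% with a pseudocount of 2 and 4.56% scaled to all peaks. Outside 3′ UTRs, leaving out 1 library gave between 2029 and 6416 calls, against 3369. Single named genes kept their side of the threshold in 503 of 616 refits, with direction also kept where they passed. Direction was not counted where a gene passed in neither fit. In 5 refits a gene turned and passed. Scaled to all peaks these were ACTN4 at -0.79, FOSL2 at -0.73 and PSMD11 at -1.01. With at least 10 IP reads they were AGO2 at 1.22 and FOSL2 at -0.72. The cause was not tested.

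Deviations of same-numbered libraries in 3′ UTR density had r = -0.0346 over 3163 genes. With 2 libraries per group, and no such value outside 3′ UTRs, this does not exclude that replicate numbers pair the libraries. With the replicate number as a block, 261 genes were called, 101 toward PTBP1 and 160 toward IGF2BP2, against 342 without it. Outside 3′ UTRs 4199 were called with the block and 3369 without it.

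The enriched share of 3′ UTR peaks minus that of coding peaks was -3.23 percentage points, -4.95 on the deposited values, -7.47 at thresholds of 2 and -3.48 at 10 or more IP reads. Minus introns it was -0.127, 0.192, -0.208 and -1.66, so its sign against introns depends on the common scale; these 3 settings were chosen after seeing the data. The mean share found again went from 62.5% to 75.9%, and that overlapped by IGF2BP2 from 48.9% to 55.0%, at 10 or more IP reads. Requiring that the overlap cover 50% of the shorter peak gave 45.3% for IGF2BP2. The score against coding peaks went from -0.27 to -0.047 and that against introns from -0.28 to -0.20 at 10 to 20 IP reads. The difference between proteins in 3′ UTR share and in enriched share kept its direction under the alternatives run, from -3.22 to -11.09 and from -15.70 to -34.71 points. An exact permutation p was computed for only some of these alternatives. It was 0.333 there, the smallest that 2 libraries against 2 allow, so it does not measure how stable the difference is. Pyrimidine and motif content of all peaks was not run.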
